A study of Rattus norvegicus with 6 samples.

Results

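Tie1, Tek, Eng, Kdr, Flt1, Ace, Nos3, Cdh5, Pecam1 and Vwf are 10 genes by which the endothelium, the cell layer that lines blood vessels, is commonly recognised. They were found on the arrays by name, after the suffixes of predicted genes were removed and older symbols were accepted. The 10 genes were read by 14 probes and stand among 25221 genes or unnamed probes that were tested. All 10 passed the filter on dim probes. Tie1, Flt1, Cdh5 and Vwf had a pair of probes each, and the brighter one was used in the gene test.

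The right lungs came from male Wistar rats, 9 weeks old at the start, kept in whole-body inhalation chambers 6 hours a day on 5 days a week for 4 weeks. The groups were ultrafine nickel oxide (NiO, which served as positive control), C60 (a fullerene, a hollow sphere of carbon atoms) and clean air, with lungs taken 3 or 33 days after the last exposure, here called 3 days and 1 month. The lungs of every group were perfused with saline before they were taken out. At 3 days 4 NiO, 2 C60 and 3 air arrays were compared, and at 1 month 4 arrays of each group. The label of the 3-day C60 group gives n = 2 beside 4 arrays, and the 2 arrays used are those that rebuild the authors' deposited column.

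Lung endothelium is a dense capillary bed, and its cells both sense growth factors and process circulating peptides. The angiopoietin receptor Tek and its partner Tie1 keep vessels quiescent, and the VEGF receptor Kdr drives endothelial growth and survival while Flt1 binds VEGF and largely acts as its trap. Endoglin (Eng) is a co-receptor for BMP9 and TGF-beta, angiotensin-converting enzyme (Ace) makes angiotensin II and degrades bradykinin on the capillary surface, and Nos3 makes nitric oxide. VE-cadherin (Cdh5) and Pecam1 join endothelial cells to each other, and von Willebrand factor (Vwf) is stored in them for clotting. Pecam1 is also carried by platelets and leukocytes, and Vwf by platelets.

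The values below are log2 signal minus the array's 75th percentile, so that 0 is the 75th percentile of an array and 1 unit is a doubling. A probe's level cannot be set against that of another probe. Of the 14 probes, 13 were well above background on 21 of 21 arrays, the dimmer Vwf probe was on 20 of 21, and no member was saturated on any array. Ace and Nos3 were spotted 10 times on each array. The SD between repeat spots of an array had a median of 0.0442 log2 units for Ace and 0.0602 for Nos3, and its highest value was 0.0985 for Ace and 0.112 for Nos3. The SD between arrays of a group ranged from 0.0180 to 0.351 for Ace and from 0.0206 to 0.784 for Nos3.

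Some of the probes that carry the main findings are shown with their position on the rat build rn4 where the files give one. Both Tie1 probes are given because they moved alike, and both Flt1 probes because they did not. Eng and Ace are given because they followed Tie1 array by array, and Nos3 because it differed between the times for both particles. The Eng probe has no position in the files, and neither has the only Kdr probe, which is not shown. The probe at chr5:138950263-138950322 on the minus strand is the Tie1 probe of the gene test, and the other Tie1 probe spans chr5:138950960-138953388. The Flt1 probe of the gene test spans chr12:7924711-7941808 on the plus strand, 17098 bases for a 60-base probe, so that its ends lie apart in the genome. The other Flt1 probe lies downstream at chr12:8035639-8035698. The Ace probe is at chr10:95380752-95380811 on the plus strand and the Nos3 probe at chr4:6159286-6159345 on the minus strand. No base is capitalised in these probes.
Tie1 used in the gene test: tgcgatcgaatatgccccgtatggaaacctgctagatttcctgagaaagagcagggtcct
Tie1 other: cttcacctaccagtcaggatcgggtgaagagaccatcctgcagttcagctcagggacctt
Flt1 used in the gene test: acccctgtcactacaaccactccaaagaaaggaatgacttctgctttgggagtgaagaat
Flt1 other: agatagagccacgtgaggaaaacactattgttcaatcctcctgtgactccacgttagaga
Eng: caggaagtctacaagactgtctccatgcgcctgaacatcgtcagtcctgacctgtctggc
Ace: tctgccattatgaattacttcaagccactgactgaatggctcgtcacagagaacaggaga
Nos3: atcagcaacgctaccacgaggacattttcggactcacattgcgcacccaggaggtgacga

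The arrays of a group did not lie equally close. On the first principal component of all tested genes, NiO arrays 2 and 3 at 3 days lay at -108 and -113 and NiO array 4 at -34.0, while NiO array 1 lay at -1.17, between the 3-day air arrays (-10.6 to 6.31). Air array 2 at 1 month lay at -64.6. Each of the 6 slides held a single group, so that the slide cannot be told apart from the group. Scanning took place on 1 day for each time, so that neither can the day from the time. Negative control spots were brighter on the C60 arrays used at 3 days (net signal 143 and 64.4) than on the other arrays used (24.3 to 37.4). On the 3-day C60 arrays left out they read 40.8 and 34.2. Spots well above background made up 57.4% and 60.7% on the C60 arrays used at 3 days, less than on any other array. They made up 78.1% and 76.5% on those left out. That an array is a rat was read from the labels. Their n matches the number of arrays, except for C60 at 3 days, where 4 arrays stood beside n = 2. The p-values refer to the spread among such arrays. For each gene limma used 1 spread over all 6 groups, although the groups differed in spread. At 3 days the SD of Tie1 was 0.61 among NiO arrays and 0.10 among air arrays. An SE given here can thus be too small where the compared groups vary more than the rest, and too large where they vary less. The tissue is whole lung, and fewer endothelial cells cannot be told apart from less RNA per cell.

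At 3 days after NiO exposure 5 of the 10 genes were lower than in air lungs and none was higher. The 5 were Tie1, Eng, Ace, Flt1 and Vwf, by log2 folds between -1.14 and -0.32. Over all tested genes 18.8% changed, 11% higher and 7.81% lower. The members' median log2 fold was -0.63 against 0.04 for all tested genes, and 9 of the 10 folds lay below 0. For Tie1, Ace, Flt1 and Vwf every NiO array lay below every air array, which held in that direction for 10.3% of all tested genes. Nos3, Pecam1, Cdh5, Tek and Kdr did not pass the test.

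**Figure D1:**
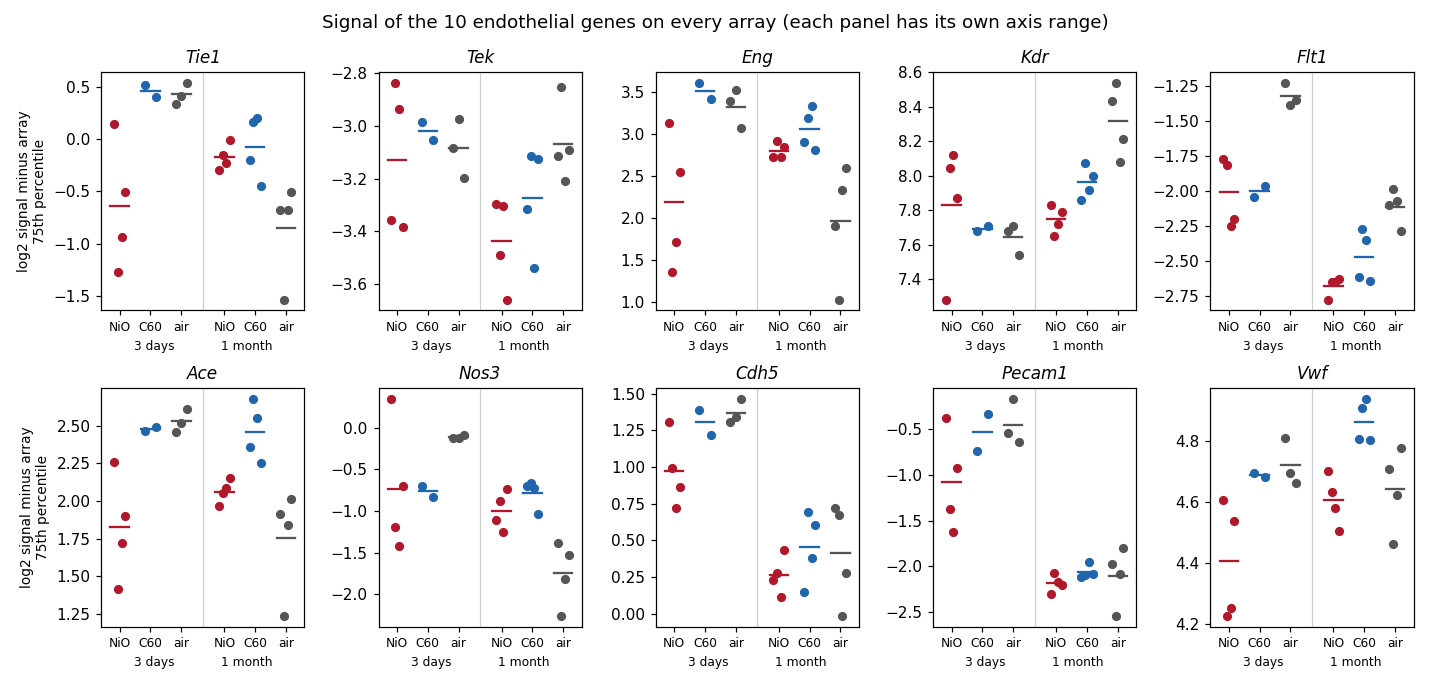
Log2 signal minus the array's 75th percentile (y axis) of each gene on every array (points), with the group mean (line), for NiO, C60 and air at 3 days (left) and at 1 month (right). NiO array 1 at 3 days is the highest red point of that group for Tie1 (0.15), Eng (3.13), Ace (2.26) and Nos3 (0.35) and the lowest for Kdr (7.28).

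The angiopoietin receptors did not move alike. Tie1, which has no high-affinity ligand of its own, read 0.15, -1.27, -0.94 and -0.50 on the NiO arrays at 3 days, against 0.34, 0.42 and 0.54 on the air arrays. NiO array 1 lay near the air arrays and the other 3 lay well below them. Its log2 fold of -1.07 (SE 0.27, 4 NiO and 3 air arrays; adjusted p = 0.0138 by limma, as all adjusted p-values here) is a 2.11-fold lower signal. The other Tie1 probe also passed, with all probes tested (adjusted p = 0.0137, SE 0.25). Tek, the receptor that binds the angiopoietins, read -3.36, -2.84, -2.94 and -3.39 on the NiO arrays, against -3.09, -2.97 and -3.20 on the air arrays. The NiO arrays lay on both sides of the air arrays, and the log2 fold was -0.04 with a 95% interval from -0.36 to 0.27.

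Endoglin, the BMP9 co-receptor, had the lowest log2 fold of the 10 genes at 3 days. Eng read 3.13, 1.36, 1.71 and 2.55 on the NiO arrays, against 3.39, 3.52 and 3.07 on the air arrays. NiO array 1 overlapped the air arrays and array 2 lay lowest. The log2 fold was -1.14 (SE 0.36; adjusted p = 0.0346). This call was lost without air array 1, 2 or 3 (adjusted p = 0.103, 0.103 and 0.0587) and without NiO array 2 or 3 (0.114 and 0.105).

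Of the VEGF receptors, Flt1 was lower after NiO at 3 days and Kdr was not called. Flt1, by the probe of the gene test, read -1.77, -1.82, -2.25 and -2.20 on the NiO arrays, against -1.23, -1.39 and -1.35 on the air arrays. All 4 NiO arrays lay below the air arrays, array 1 included, and the log2 fold was -0.69 (SE 0.13; adjusted p = 0.00165). The call was kept in each of 21 fits that left out 1 array. Kdr read 7.28, 8.04, 8.12 and 7.87 on the NiO arrays, against 7.68, 7.71 and 7.54 on the air arrays. NiO arrays 2 to 4 lay above the air arrays and NiO array 1 below them. The log2 fold of Kdr was 0.18 (95% interval -0.15 to 0.52; adjusted p = 0.417).

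The vasoactive enzymes lay lower on NiO arrays 2 to 4 than on the air arrays. Ace read 2.26, 1.42, 1.72 and 1.90 on the NiO arrays, against 2.46, 2.52 and 2.61 on the air arrays. Every NiO array lay below the air arrays, and the log2 fold was -0.70 (SE 0.18; adjusted p = 0.0147). Nos3 read 0.35, -1.19, -1.42 and -0.70 on the NiO arrays, against -0.12, -0.12 and -0.08 on the air arrays. NiO array 1 lay above all air arrays and the other 3 below them. The log2 fold of Nos3 was -0.63 (SE 0.30; adjusted p = 0.141) and did not pass.

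Among the junction and storage proteins only Vwf passed, by a small margin. Vwf read 4.61, 4.23, 4.25 and 4.54 on the NiO arrays, against 4.81, 4.69 and 4.66 on the air arrays, and the groups did not overlap. The log2 fold was -0.32 (SE 0.10; adjusted p = 0.0442), and the call was lost in 15 of 21 fits that left out 1 array. The dimmer Vwf probe, with all probes tested, gave -0.73 (adjusted p = 0.0277). That probe was well above background on only 3 of the 4 NiO arrays, so its fold is less certain. Pecam1 read -0.38, -1.37, -1.62 and -0.92 on the NiO arrays, against -0.54, -0.17 and -0.63 on the air arrays. NiO array 1 lay among the air arrays, and the log2 fold of -0.63 (SE 0.23; adjusted p = 0.0635) did not pass. Cdh5 read 1.31, 0.99, 0.72 and 0.86 on the NiO arrays, against 1.30, 1.34 and 1.46 on the air arrays. NiO array 1 lay at the lower edge of the air arrays and the other 3 below them, with a log2 fold of -0.40 (SE 0.18; adjusted p = 0.117).

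The count of 5 rested on which NiO and air arrays were read. Without NiO array 1 limma called 9 of the 10 genes, all but Tek, with Kdr higher and the other 8 lower. Without NiO array 2 or 3 it called Tie1, Ace and Flt1, as it did without air array 1 or 2. Without air array 3, and also without NiO arrays 2 and 3 together (an alternative chosen after seeing the data), Flt1 alone was called. When only the NiO and air arrays of 3 days entered the model, limma called 0 of 10, with 5 of 10 at an unadjusted p under 0.05. Calls over all tested genes, 4745 in the main fit, likewise rose without NiO array 1 and fell in each other fit named here. The swing is thus not particular to these 10 genes, and the counts over all features are given with the processing below.

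**Figure D2:**
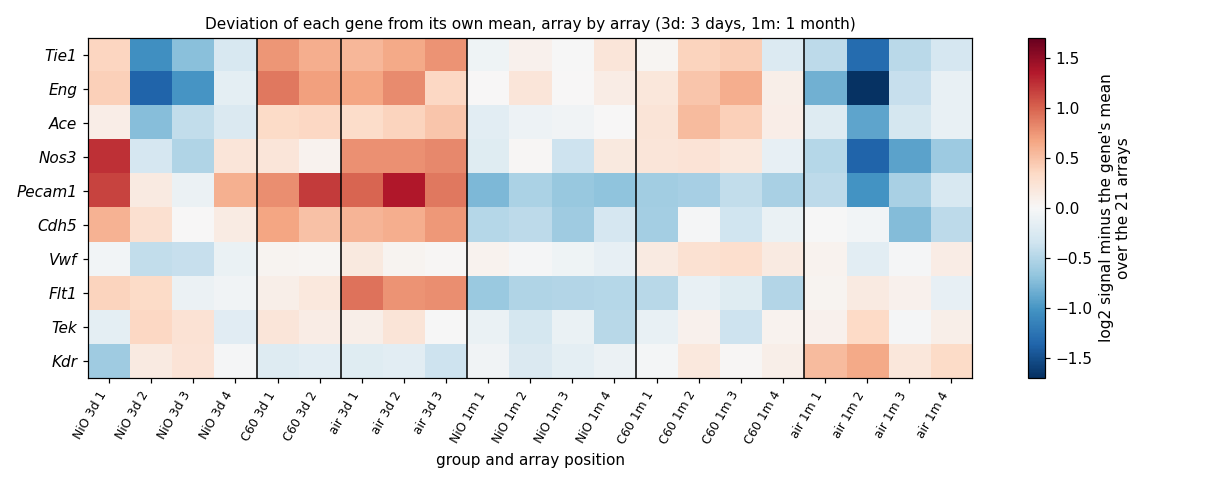
Log2 signal of each gene (rows) on each array (columns) minus the gene's mean over the 21 arrays, in blue below and red above that mean. Tie1, Eng and Ace share their pattern over the arrays, with the lowest values on NiO arrays 2 and 3 at 3 days and on air array 2 at 1 month, while Kdr runs against them.

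Tie1, Eng and Ace varied together array by array. Over the 21 arrays Pearson's r was 0.96 for Tie1 with Eng, 0.94 for Tie1 with Ace and 0.93 for Eng with Ace. For deviations from the group means the same pairs gave 0.92, 0.97 and 0.88. Over all 45 pairs of members r ranged from -0.84 to 0.96 with a median of 0.32, and 29 of 45 were above 0. The arrays share slides and scaling, so these values describe the arrays and are not tested. Outside the 10 genes, the genes with the highest r to the members' mean were Tpst2, a tyrosylprotein sulfotransferase (0.96), Cfap20dc (0.95), Irf2bp1, Pxdc1, Pde2a, a cGMP-stimulated phosphodiesterase, Ppp1r13b, Arhgef17, Dmpk, Tnks1bp1 and Slco3a1, an anion transporter, the last 8 all at 0.94.

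RefSeq promoters on build GRCr8, from 250 bases before to 50 bases after the gene start, were at hand for 6 of the 10 genes (Tie1, Eng, Ace, Nos3, Kdr and Flt1). They were searched on both strands for GGAA, the core of sites for ETS factors, the family to which the endothelial regulators Erg and Fli1 belong, and for CAGGAAG, a longer form that contains it. GGAA was in 6 of 6 of these promoters and in 95.8% of 33469 rat promoters, and CAGGAAG was in 0 of 6 and in 12.5%. The promoters of Tie1 (chr5:137304932-137305231, minus strand) and Eng (chr3:36332029-36332328, plus strand) are shown as the pair with the highest r, with GGAA or its reverse complement TTCC in capitals.
Tie1 promoter: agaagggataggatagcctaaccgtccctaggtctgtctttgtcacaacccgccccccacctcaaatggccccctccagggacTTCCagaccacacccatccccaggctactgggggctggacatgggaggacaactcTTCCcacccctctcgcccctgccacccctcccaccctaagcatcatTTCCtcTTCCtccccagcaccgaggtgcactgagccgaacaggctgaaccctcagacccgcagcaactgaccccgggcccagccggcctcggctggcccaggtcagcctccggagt
Eng promoter: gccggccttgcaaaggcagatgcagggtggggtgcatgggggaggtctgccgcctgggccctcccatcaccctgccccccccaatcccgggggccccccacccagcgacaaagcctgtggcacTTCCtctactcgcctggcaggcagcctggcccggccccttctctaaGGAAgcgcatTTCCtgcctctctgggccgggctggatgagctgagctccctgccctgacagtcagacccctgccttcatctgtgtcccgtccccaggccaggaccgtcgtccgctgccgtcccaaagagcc

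At 1 month after NiO exposure the 10 genes were split. Nos3 was higher than in air lungs and Kdr, Flt1 and Tek were lower. Over all tested genes 30.8% changed at this time, 11.9% higher and 18.9% lower. All tested genes had a median log2 fold of -0.12 under this scaling and of 0.02 after quantile normalization. The members' own median was -0.06. Relative to the median of all genes the log2 fold was 0.87 for Nos3, -0.45 for Kdr, -0.44 for Flt1 and -0.25 for Tek. Medians over all tested genes also varied with GC content, the share of G and C in a probe. At 1 month they were -0.24 up to 35% GC, -0.16 from 35 to 40% and 0.03 from 55 to 60%, but -0.39 above 60%. At 3 days after NiO they were 0.13 up to 35% and -0.09 from 55 to 60%. The probes of Tek, Kdr, Flt1 and Nos3 held 35%, 40%, 45% and 55%. Centring by GC class, chosen after seeing the data, gave 5 calls among the members. The part of GC content was not tested. For Tie1, Eng and Nos3 every NiO array lay above every air array, which held in that direction for 15.2% of all tested genes. For Tek, Kdr and Flt1 every NiO array lay below, which held for 21.9%.

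Nos3, the endothelial nitric oxide synthase, read -1.11, -0.88, -1.25 and -0.74 on the NiO arrays at 1 month, against -1.38, -2.26, -1.81 and -1.52 on the air arrays. The groups did not overlap, and air array 2 lay lowest. The log2 fold was 0.75 (SE 0.28, n = 4 and 4; adjusted p = 0.0489), a call kept in only 4 of 21 fits that left out 1 array and lost with normexp background correction (adjusted p = 0.0552). Tie1 read -0.30, -0.15, -0.23 and -0.01 on the NiO arrays, against -0.67, -1.54, -0.68 and -0.51 on the air arrays. Its log2 fold of 0.68 (SE 0.25; adjusted p = 0.0524) just missed the threshold, and the other Tie1 probe, with all probes tested, gave 0.65 (adjusted p = 0.0439). Eng read 2.72, 2.92, 2.73 and 2.85 on the NiO arrays, against 1.90, 1.03, 2.33 and 2.60 on the air arrays. The air arrays were spread wide below the NiO arrays, and the log2 fold was 0.84 (SE 0.33; adjusted p = 0.0614). Ace, at 1.96, 2.05, 2.08 and 2.15 on the NiO arrays against 1.92, 1.24, 1.84 and 2.01 on the air arrays, had a log2 fold of 0.31 (adjusted p = 0.164).

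Kdr, the main signalling receptor for VEGF, was lower at 1 month. Kdr read 7.83, 7.65, 7.72 and 7.79 on the NiO arrays, against 8.43, 8.54, 8.08 and 8.22 on the air arrays. All 4 NiO arrays lay below the air arrays, and the log2 fold was -0.57 (SE 0.15; adjusted p = 0.00897), kept in 21 of 21 fits that left out 1 array. Flt1 read -2.78, -2.65, -2.65 and -2.63 on the NiO arrays, against -2.10, -1.99, -2.08 and -2.29 on the air arrays. The groups lay clearly apart, with a log2 fold of -0.56 (SE 0.12; adjusted p = 0.00301). After quantile normalization Flt1 fell by 0.34 on the log2 scale and was not called (adjusted p = 0.0582). Tek read -3.30, -3.49, -3.30 and -3.66 on the NiO arrays, against -3.12, -2.85, -3.21 and -3.09 on the air arrays. Its log2 fold was -0.37 (SE 0.14; adjusted p = 0.0495) and depended on the scaling: it was -0.00 after quantile normalization (adjusted p = 0.984) and -0.10 with normexp background correction (adjusted p = 0.587). Cdh5, Pecam1 and Vwf had log2 folds between -0.15 and -0.04 and were not called.

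**Figure D3:**
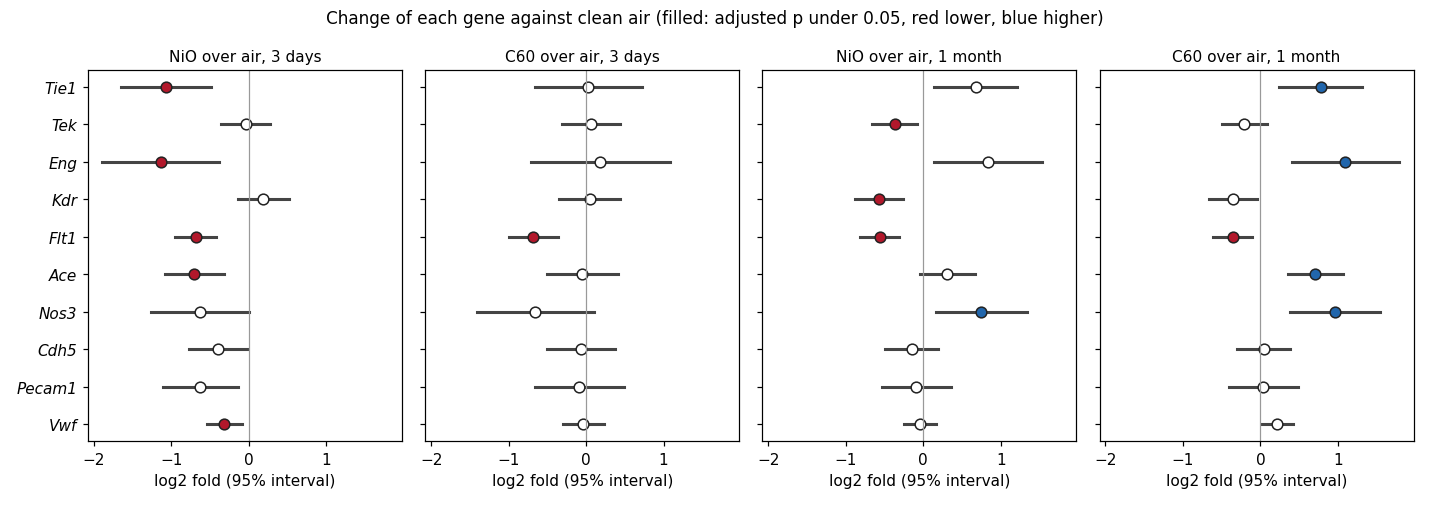
Log2 fold against clean air of the same time (points) with its 95% interval (lines) for each gene, with NiO and C60 at 3 days and at 1 month in a panel each, filled red where lower and blue where higher at an adjusted p under 0.05. Tie1, Eng, Ace and Nos3 lie left of 0 for NiO at 3 days and right of 0 for both particles at 1 month, while Kdr lies right of 0 at 3 days and left of 0 at 1 month.

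The NiO effect differed between the times for 5 of the 10 genes, tested as the difference of the log2 folds in the same fit. It was higher at 1 month for Eng by 1.98 (SE 0.49; adjusted p = 0.00726), for Tie1 by 1.75 (SE 0.37; adjusted p = 0.00393), for Nos3 by 1.38 (SE 0.41; adjusted p = 0.0162) and for Ace by 1.01 (SE 0.25; adjusted p = 0.00725). It was lower at 1 month for Kdr, by -0.75 (SE 0.21; adjusted p = 0.0136). Over all tested genes 37.5% differed between the times, 14.5% in the direction of Tie1 and 23% in that of Kdr. Each of the 5 calls was kept in 21 of 21 fits that left out 1 array. Without NiO arrays 2 and 3 at 3 days together, Tie1 (1.29; adjusted p = 0.0223), Eng (1.33; adjusted p = 0.0423) and Ace (0.76; adjusted p = 0.0437) were called and Nos3 (0.82; adjusted p = 0.106) and Kdr (-0.50; adjusted p = 0.0914) were not.

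The means of both NiO and air arrays differed between the times. Tie1 averaged -0.64 ± 0.61 in NiO lungs at 3 days and -0.17 ± 0.12 in NiO lungs at 1 month (SD, n = 4 each). In air lungs it averaged 0.43 ± 0.10 at 3 days (n = 3) and -0.85 ± 0.47 at 1 month (n = 4). The order of the 6 group means of Tie1 was C60 at 3 days (0.46), air at 3 days, C60 at 1 month (-0.07), NiO at 1 month, NiO at 3 days and air at 1 month, with overlapping arrays between each pair of neighbours but air at 3 days and C60 at 1 month. Kdr averaged 7.83 ± 0.38 in NiO lungs at 3 days and 7.75 ± 0.08 at 1 month, against 7.64 ± 0.09 in air lungs at 3 days and 8.32 ± 0.21 at 1 month. Pecam1 averaged -1.07 ± 0.55 in NiO lungs at 3 days and -2.19 ± 0.09 at 1 month, and in air lungs -0.45 ± 0.25 at 3 days and -2.10 ± 0.32 at 1 month. Pecam1 thus lay lower at 1 month in all 3 groups, a step that time and scan day share.

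C60 lungs at 3 days differed from air lungs in 1 of the 10 genes. Over all tested genes 4.93% changed, 2.95% higher and 1.98% lower. Flt1 read -2.04 and -1.96 on the C60 arrays, against -1.23, -1.39 and -1.35 on the air arrays. Both C60 arrays lay below the air arrays, and the log2 fold was -0.68 (SE 0.15, 2 and 3 arrays; adjusted p = 0.0127). Without C60 array 1 or 2 or air array 1 limma called 0 of the 10 genes, with 1 of 10 at an unadjusted p under 0.05 in each of these fits. Where a C60 array is left out, the other is the only one of its group, and it is assumed to vary as the other groups do. Tie1 read 0.52 and 0.40 on the C60 arrays and Eng 3.61 and 3.42, against 0.34 to 0.54 for Tie1 and 3.07 to 3.52 for Eng on the air arrays. For Tie1 the log2 fold was 0.03 with a 95% interval from -0.66 to 0.72. Nos3 read -0.69 and -0.83 on the C60 arrays, below all air arrays, but its log2 fold of -0.66 (SE 0.36; adjusted p = 0.374) did not pass, and 24.8% of all tested genes had every C60 array below every air array. The SD of Nos3 was 0.10 among these C60 arrays and 0.02 among the air arrays. The SE rests on all 6 groups, with an SD of 0.78 among the NiO arrays at 3 days.

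At 1 month Tie1, Eng, Ace and Nos3 were higher in C60 lungs than in air lungs and Flt1 was lower. Over all tested genes 19.8% changed, 7.3% higher and 12.5% lower. Ace read 2.36, 2.68, 2.55 and 2.25 on the C60 arrays, all above the air arrays, 0.71 above them in mean (log2 fold, SE 0.17, 4 arrays each; adjusted p = 0.01), and it kept the call in 21 of 21 fits that left out 1 array. Eng read 2.91, 3.19, 3.34 and 2.82 on the C60 arrays (log2 fold 1.10, SE 0.33; adjusted p = 0.0287). Nos3 read -0.70, -0.66, -0.73 and -1.04 on the C60 arrays (0.96, SE 0.28; adjusted p = 0.0239). Tie1 read -0.20, 0.16, 0.20 and -0.45 on the C60 arrays (0.78, SE 0.25; adjusted p = 0.041). For these 4 genes every C60 array lay above every air array, which held for 11.4% of all tested genes. Without air array 2 Tie1, Eng, Nos3 and Flt1 lost the call (adjusted p = 0.153, 0.108, 0.0873 and 0.118), and Ace alone was called, as it was without C60 array 1 or 3. Over the 21 fits that left out 1 array, Flt1 lost its call in 12, Tie1 in 8 and Eng and Nos3 in 4 each, and Flt1 also lost it in 7 of 10 other settings. Flt1 read -2.62, -2.27, -2.36 and -2.65 on the C60 arrays, with 1 of them inside the range of the air arrays (log2 fold -0.36, SE 0.12; adjusted p = 0.0415). Kdr lay below all air arrays (7.86 to 8.07 on the C60 arrays), with a log2 fold of -0.35 that did not pass (adjusted p = 0.0888), and 16.3% of all tested genes lay below in this way. The C60 and NiO folds at 1 month share the 4 air arrays.

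Set against each other, the particles differed in 1 of the 10 genes at 3 days. Tie1 was lower in NiO than in C60 lungs with a log2 fold of -1.10 (SE 0.31, 4 and 2 arrays; adjusted p = 0.0402). Of all tested genes 7.72% differed and 2.71% were lower in NiO. Eng (-1.33; adjusted p = 0.0528) and Ace (-0.65; adjusted p = 0.0607) did not pass, and the Tie1 call was kept in 11 of 21 fits that left out 1 array. With all 4 deposited C60 arrays Tie1, Eng and Ace were called. For Flt1 the NiO and C60 arrays at 3 days overlapped, with a log2 fold of -0.01 (95% interval -0.31 to 0.30). At 1 month limma called 0 of the 10 genes between NiO and C60, with 1.22% of all tested genes called and 2 members, Vwf (-0.26) and Ace (-0.40), at an unadjusted p under 0.05. All 10 log2 folds of NiO over C60 at 1 month lay below 0, between -0.40 and -0.10, with a median of -0.01 over all tested genes. This was not particular to the 10 genes. Folds below 0 were also found for 10 of 11 pericyte and smooth muscle markers and 6 of 6 airway markers. Among leukocyte markers they were 8 of 16 and among alveolar markers 5 of 12. The 95% interval was -0.64 to 0.44 for Tie1 and -0.95 to 0.44 for Eng. The C60 effect differed between the times for Nos3 only, by 1.62 (SE 0.45; adjusted p = 0.031), where 10.4% of all tested genes differed and 4.2% in this direction.

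**Figure D4:**
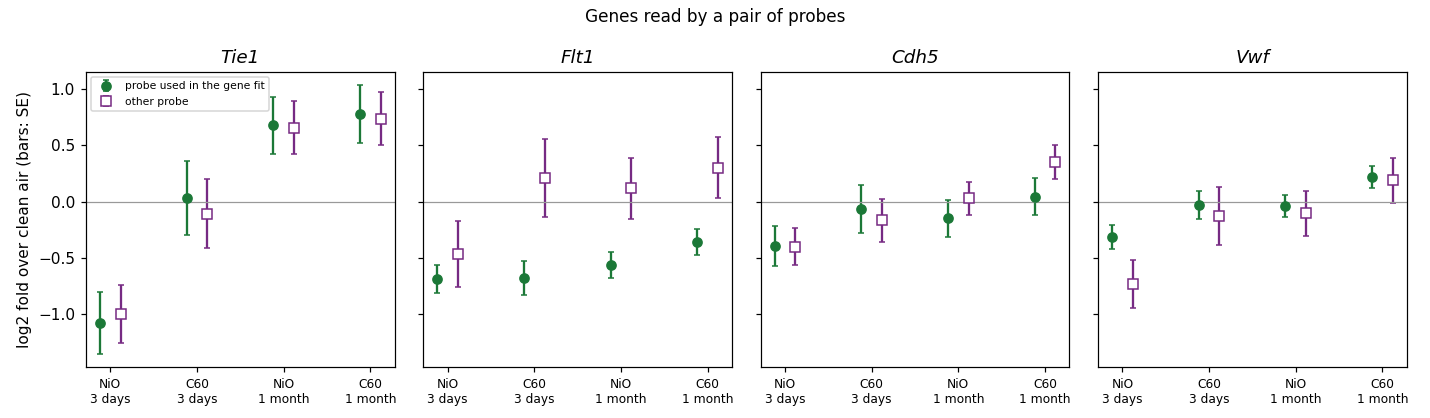
Log2 fold over clean air (y axis, bars are SE) for both probes of Tie1, Flt1, Cdh5 and Vwf in each comparison, with the probe of the gene test filled and the other open. The Tie1 probes lie together in every comparison, and the Flt1 probes lie on opposite sides of 0 for C60 at 3 days and for both particles at 1 month.

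The Flt1 result rested on which of its probes was read. The downstream probe read -2.96, -2.85, -2.93 and -2.84 on the NiO arrays at 1 month, against -2.95, -3.43, -2.97 and -2.70 on the air arrays. These groups overlapped, and the log2 fold was 0.12 (SE 0.27; adjusted p = 0.757), against -0.56 for the upstream probe. In C60 lungs the downstream probe gave 0.21 at 3 days and 0.30 at 1 month, where the upstream probe gave -0.68 and -0.36. At NiO 3 days both lay below 0, at -0.47 downstream (adjusted p = 0.263) and -0.69 upstream. The difference between the 2 probes' folds was -0.68 for NiO and -0.66 for C60 at 1 month, each with an exact permutation p of 0.0286 (two-sided, the smallest the design allows), which is 0.229 after adjustment over the 16 probe pair comparisons. With the mean of both probes Flt1 was not called for C60 at 3 days (adjusted p = 0.672) or for NiO (0.306) or C60 (0.916) at 1 month. The Tie1, Cdh5 and Vwf pairs gave differences with unadjusted exact permutation p from 0.0571 to 1.

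Other genes of the same pathways were read from lists chosen with earlier results of these data known, and their counts are set beside the share of all tested genes that changed in the same comparison. Of 47 measured genes of endothelial identity and junctions, 18 were lower and 0 higher after NiO at 3 days, and 42 of the 47 log2 folds were below 0 (median -0.40). The 18 are 38.3% of the list, against 7.81% lower over all tested genes. Those with the largest change were Klf2, a flow-induced transcription factor (-1.52, SE 0.30; adjusted p = 0.00243), Ramp3, a co-receptor for adrenomedullin (-1.05), Notch1 (-0.90) and Plvap, the protein of capillary diaphragms (-0.86). At 1 month 6 of the 47 were higher and 7 lower after NiO, 27.7% of the list against 30.8% of all tested genes, so that the count does not set the list apart. Among these Apln (-0.83), the ligand of the apelin receptor, Tmem100 (-0.80), Hey1 (-0.78) and Ramp3 (-0.65) changed most. After C60 at 3 days limma called 0 of 47, with 9 at an unadjusted p under 0.05, while 12 were higher (25.5% of the list, against 7.3% of all tested genes) and 1 lower at 1 month (median 0.13).

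Of 23 measured genes of angiopoietin, VEGF and endoglin signalling, 5 were lower and 0 higher after NiO at 3 days, which is 21.7% lower against 7.81% of all tested genes. They included the ligand gene Angpt4 (-1.92, SE 0.52; adjusted p = 0.0193), the VEGF co-receptor Nrp1 (-1.52, SE 0.30; adjusted p = 0.0029), the VEGF-C receptor Flt4 (-0.98) and Vegfa itself (-0.78, SE 0.16; adjusted p = 0.00426). The Tek ligand gene Angpt2 was not called (0.00; adjusted p = 0.996). At 1 month 4 were higher and 4 lower after NiO, 34.8% of the list and near the 30.8% of all tested genes. Among these Angpt4 (-2.01), the Flt1 ligand genes Vegfb (1.05, SE 0.19; adjusted p = 0.00125) and Pgf (-1.03) and the co-receptor Tgfbr3 (-0.90) changed most. After C60 at 3 days limma called 0 of 23, with 3 at an unadjusted p under 0.05, while 3 were higher and 2 lower at 1 month (21.7%, against 19.8% of all tested genes).

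Of 26 measured genes of nitric oxide, angiotensin and kinin pathways, 1 was higher and 5 lower after NiO at 3 days, 23.1% against 18.8% of all tested genes. Gch1, which makes the cofactor of nitric oxide synthases, was higher (1.01, SE 0.13; adjusted p = 7.38e-05). Ass1, which recycles their substrate arginine, was lower (-1.39, SE 0.25; adjusted p = 0.00132), as were the cGMP-dependent kinase Prkg1 (-1.09) and the angiotensin receptor Agtr1b (-0.96). At 1 month 4 were higher and 5 lower after NiO, 34.6% against 30.8% of all tested genes, so that both counts lie near the background. Among them were the bradykinin receptor Bdkrb2 (-0.87), Gch1 (0.72), Agtr1b (-0.63) and the carboxypeptidase Cpn1 (0.60). After C60 1 was lower at 3 days (3.85%, against 1.98% of all tested genes), and 5 were higher and 1 lower at 1 month (23.1%, against 19.8% of all tested genes).

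**Figure D5:**
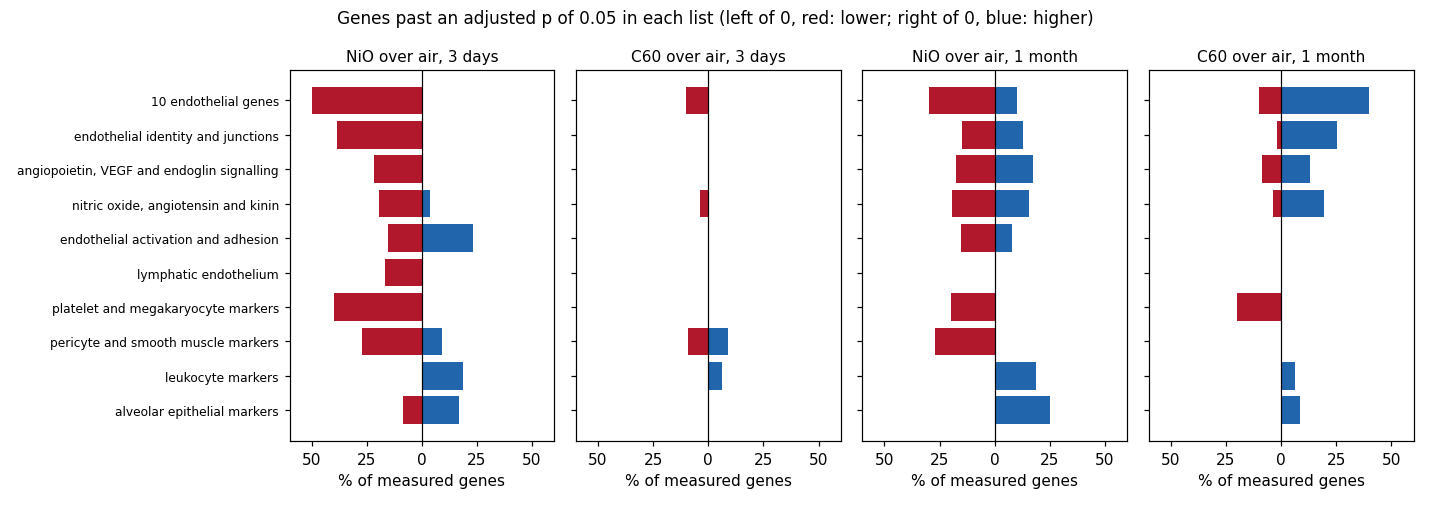
Share of the measured genes of each list (x axis, percent) that were lower (red, left of 0) or higher (blue, right of 0) at an adjusted p under 0.05, for NiO and C60 against air at 3 days and at 1 month. After NiO at 3 days 18 of 47 endothelial identity genes were lower and none higher, and after C60 at 1 month 12 were higher and 1 lower.

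Genes of endothelial activation were split. Of 13 measured, 3 were higher and 2 lower after NiO at 3 days (38.5%, against 18.8% of all tested genes): the chemokine genes Cxcl1 (2.82, SE 0.30; adjusted p = 9.29e-06), Ccl2 (2.53) and Cx3cl1 (0.90) were higher and the interleukin-1 receptor gene Il1r1 was lower (-1.10). The first 2 are also made by leukocytes and epithelium. At 1 month 3 of 13 changed (23.1%, below the 30.8% of all tested genes). Sele (-0.97) and Vcam1 (-0.62), adhesion molecules of activated endothelium, were lower and Icam1 (0.37) was higher.

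Markers of other cell types changed in part beside these genes. Of 16 measured leukocyte markers 3 were higher and none lower after NiO at each time (18.8%, against 18.8% of all tested genes at 3 days and 30.8% at 1 month), and the mean of their centred log2 values ranged from -0.31 to 0.06 on NiO arrays at 3 days, against -0.22 to -0.07 on air arrays. Their ranges were 0.06 to 0.37 on NiO arrays at 1 month and -0.16 to -0.06 on air arrays. Of 5 measured platelet markers 2 were lower after NiO at 3 days, where 7.81% of all tested genes were, Gp1bb (-0.88) and Gp9 (-0.77), with mean centred values of -0.40 to 0.06 on NiO arrays and -0.02 to 0.34 on air arrays. Of 11 pericyte and smooth muscle markers 3 were lower (27.3%) and 1 higher at that time, with means of -0.26 to -0.15 on NiO arrays and -0.02 to 0.07 on air arrays. Of 6 lymphatic markers 1 was lower, Flt4, which also stands in the VEGF list. Of 12 alveolar epithelial markers 2 were higher and 1 lower, of 8 fibroblast markers 2 were higher, of 6 airway markers 1 was lower, and of 6 heart and 4 red blood cell markers limma called 0, with 0 and 1 at an unadjusted p under 0.05. Over all tested genes 11% were higher and 7.81% lower at that time.

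After NiO at 1 month, where Kdr, Flt1 and Tek were lower, 3 of 6 airway markers, 3 of 8 fibroblast markers, 3 of 11 pericyte and smooth muscle markers and 1 of 5 platelet markers were lower as well, 3 of 12 alveolar markers were higher, and all 6 heart log2 folds lay below 0 with none called (2 at an unadjusted p under 0.05 by limma). Over all tested genes 18.9% were lower and 11.9% higher. The mean centred values of the airway markers ranged from -0.52 to -0.10 on NiO arrays and from -0.02 to 0.16 on air arrays, and those of the fibroblast markers from -0.17 to -0.07 on NiO arrays and from -0.06 to 0.21 on air arrays. After C60 at 3 days, where Flt1 was lower, 3 of 8 fibroblast markers (37.5%, against 1.98% of all tested genes), 1 of 6 airway and 1 of 11 pericyte markers were lower, and 1 pericyte and 1 of 16 leukocyte markers were higher (2.95% of all tested genes were). All 6 heart log2 folds lay below 0 in that comparison, with 0 called by limma and 5 at an unadjusted p under 0.05. The mean centred heart values there were -1.35 to -0.25 on C60 arrays and 0.05 to 0.97 on air arrays. After C60 at 1 month 1 leukocyte, 1 alveolar and 1 airway marker were higher and 1 platelet marker was lower. Over all tested genes 7.3% were higher and 12.5% lower. The part of these markers in the endothelial values was not tested.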

How the data were processed

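The scanner files held 1-colour Agilent rat arrays. Per the file headers, Feature Extraction 9.5.3.1 made the deposited intensity values (background subtracted, grid build rn4). The authors' deposited table gives each group 1 ratio to air for every probe, with no steps given in the sources used here, and it entered no test. It settled which C60 arrays to use: its 3-day C60 column was rebuilt by arrays 1 and 2 with a median absolute deviation of 0.00082 log2 units, against 0.109 by all 4. Thus 21 of 23 arrays entered.

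Neither control spots nor spots marked as outliers were used, unless all spots of a probe were so marked, spots of a probe were averaged, and log2 intensity minus the array's 75th percentile was used. Of 41012 probes, 28677 were well above background on every array of at least 1 group. The brightest kept probe stood for a gene, giving 25221 features. A single limma fit (version 3.58.1, R 4.3.3; 15 residual degrees of freedom) covered the 6 groups, with Benjamini-Hochberg adjusted p under 0.05 over all features, and was tested on simulated data. The number of arrays limits the precision.

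The members and lists were chosen with earlier results of these data known. The text names all members and probes, of each list the 4 largest changes called after NiO at each time, and the 10 genes most correlated with the members' mean. Angpt2 was added after its value was seen.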

Additional observations from a re-analysis of the deposited data

Results flagged for a closer look

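In 3 of 40 groups of 4 arrays checked, a single array stood apart from the other 3, where chance gives about 1 in 20. Tie1 read -1.54 on air array 2 at 1 month, below the other 3 air arrays. Flt1 read -2.78 on NiO array 1 at 1 month, and Nos3 read -1.04 on C60 array 4 at 1 month, each below the rest of its group. Without air array 2 the 1-month log2 fold of Tie1 over air was 0.55 for C60 (adjusted p = 0.153), against 0.78 with it.

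The effect of NiO over air differed between 1 month and 3 days, by a test of the difference itself, for Eng (1.98), Tie1 (1.75), Nos3 (1.38), Ace (1.01) and Kdr (-0.75). The effect of C60 over air differed in the same way for Nos3 (1.62), which averaged -0.76 in C60 lungs at 3 days and -0.78 at 1 month, against -0.11 in air lungs at 3 days and -1.75 at 1 month. Time, slide and scan day cannot be told apart in these differences.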

How the results depend on the processing

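No log2 fold of a called gene changed sign under any alternative run, where the run with every probe as a feature was read by the probe of the gene test. The other Flt1 probe had the opposite sign for NiO at 1 month (0.12) and for C60 at 3 days (0.21) and 1 month (0.30). The 2 settings chosen after seeing the data were centring by the GC content of the probe and leaving out NiO arrays 2 and 3 at 3 days. Against air, NiO at 3 days gave 5 genes called, 1 to 9 when 1 array was left out, 3 with no filter on dim probes, 0 in a limma fit of the compared groups only and 1 without NiO arrays 2 and 3. NiO at 1 month gave 4, 2 to 6 when 1 array was left out, 2 after quantile normalization, 2 with no filter and 6 without NiO arrays 2 and 3. C60 at 3 days gave 1, 0 to 1 when 1 array was left out, 0 with the mean over probes (0 at an unadjusted p under 0.05) and 2 with the compared groups only. C60 at 1 month gave 5, 1 to 6 when 1 array was left out, 3 with no filter, 2 with the compared groups only and 7 without NiO arrays 2 and 3. NiO against C60 at 3 days gave 1, 0 to 5 when 1 array was left out, 3 with all 4 C60 arrays, 2 after quantile normalization, 2 with GC centring, and 0 with no filter (4 at an unadjusted p under 0.05), with the compared groups only (3) or without NiO arrays 2 and 3 (2). The difference of the NiO effects gave 5, 5 to 7 when 1 array was left out and 3 without NiO arrays 2 and 3. The difference of the C60 effects gave 1, 0 to 2 when 1 array was left out, 2 with all 4 C60 arrays, 2 after quantile normalization and 2 without NiO arrays 2 and 3. With the compared groups only, 0 genes at 3 days passed for NiO over air while 5 had an unadjusted p under 0.05, and 846 of 22706 features passed, against 4745 of 25221 with all 6 groups. Over all features the NiO count at 3 days was 9710 without NiO array 1, 2237, 2916 and 2620 without air array 1, 2 and 3, 2667 and 2575 without NiO array 2 and 3, and 1585 without both of the last. The causes of these changes were not tested. In the authors' deposited table the log2 ratio of NiO over air at 3 days was -1.25 for Tie1, -1.32 for Eng, -0.89 for Ace and -0.87 for Flt1, and at 1 month 1.09 for Nos3, -0.23 for Kdr and -0.23 for Flt1. For 2 genes called lower here it lay close to 0, at -0.03 for Tek (NiO over air) and -0.05 for Flt1 (C60 over air) at 1 month. These ratios are on a scale whose centring is unknown. No paired analysis was possible because the labels give 1 sample per group and no replicate numbers.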

Other observations

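A further probe is named Tek in its description line but carries a transcript identifier in the gene column, so that it was not a member by name. It was well above background on all 21 arrays. It averaged 1.41 ± 0.14 on NiO arrays (SD, n = 4), 1.76 ± 0.04 on C60 arrays (n = 2) and 1.20 ± 0.03 on air arrays (n = 3) at 3 days. At 1 month it averaged 0.52 ± 0.06 on NiO arrays, 0.71 ± 0.13 on C60 arrays and 0.94 ± 0.22 on air arrays (n = 4 each). Like the Tek probe of the gene test it read lower on every NiO array than on any air array at 1 month. At 3 days every NiO array (1.26 or more) and C60 array (1.73 or more) lay above the air arrays (1.24 or less). By the probe of the gene test the NiO arrays lay on both sides of the air arrays at 3 days. These differences were not tested.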
